A study of Mus musculus with 12 samples.

Results

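Acta2, Tagln, Cnn1, Myh11, Smtn, Des, Actg2, Lmod1 and Mylk encode proteins of the smooth muscle contractile apparatus, and Myocd encodes myocardin, a transcriptional coactivator of such genes. These 10 genes were followed in whole lungs of C57BL6/J mice by bulk RNA sequencing. They were picked by name out of the 23127 genes in the deposited table, and all 10 were found. The choice was made knowing how contractile genes stood at 2 and at 5 weeks, so the differences of the 10 genes between groups are given as a description, without p-values of their own. Where the number of members past a threshold is given, it stands beside that of all genes and nothing is read from it.

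The 12 libraries come from 4 control mice at 0 weeks, 4 mice after 2 weeks and 4 mice after 5 weeks of L-NAME/HFD, which is L-NAME in the drinking water at 0.5 g/L together with a high-fat diet of 60% lipid. L-NAME inhibits nitric oxide synthase, and the pair of exposures serves as a model of heart failure with preserved ejection fraction. Both exposures were given together and the only untreated group is that of 0 weeks, so L-NAME, diet and time on study cannot be told apart. Age, sex and the diet of the controls are not stated in the sources used here. Replicate numbers name the mice within a group and pair nothing.

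Smooth muscle cells of pulmonary vessels and airways contract when myosin light chain kinase phosphorylates smooth muscle myosin, which then pulls on actin filaments. Nitric oxide raises cGMP in these cells and relaxes them. Transcription of the contractile genes depends on serum response factor (SRF), which binds DNA elements called CArG boxes, and myocardin and the related MRTF proteins are its coactivators. In whole lung, fewer smooth muscle cells and less RNA per cell cannot be told apart.

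Values are CPM, the counts of a gene scaled to a fixed library total. The spacing of the low values puts the depth at 26031498 to 34135518 reads in each library. Differences are log2 differences of log2(CPM + 1) fitted with limma, each with its standard error (SE). Markers of other tissues set 3 libraries apart. Skeletal muscle markers (10 genes, among them Acta1 and Myh4) summed to 9641 CPM in 2-week replicate 3 and to 452 CPM in control replicate 2, against 13.8 to 50.6 CPM in the other 10 libraries. Adipocyte markers (6 genes) summed to 1497 CPM in control replicate 2, against 23.0 to 142 CPM in the others. Red cell markers (5 genes) summed to 16132 CPM in 5-week replicate 3, against 1039 to 4443 CPM in the others. Control replicate 2, 2-week replicate 3 and 5-week replicate 3 are the libraries left out together in the recomputation without 3 libraries.

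The promoters of Acta2 and Lmod1 are shown because, among the members, they hold sequences close to the CArG box. The CArG box is a run of 10 bases with CC and GG flanking A or T bases. It was searched with no mismatch and with 1 mismatch in the 250 bases before the gene start, in the RefSeq promoters of GRCm38.p6. The pattern reads alike on both strands. The table matched 6 members (Acta2, Cnn1, Smtn, Des, Lmod1 and Mylk). None of these 6 windows held an exact box, which 1.47% of all 32851 promoters held. With 1 mismatch allowed, Acta2 and Lmod1 held 2 sites each and the other 4 windows held none, against 18.6% of all promoters with at least 1 site. In the sequences, given 5′ to 3′ along the strand of the gene, capitals mark the sites.
Acta2: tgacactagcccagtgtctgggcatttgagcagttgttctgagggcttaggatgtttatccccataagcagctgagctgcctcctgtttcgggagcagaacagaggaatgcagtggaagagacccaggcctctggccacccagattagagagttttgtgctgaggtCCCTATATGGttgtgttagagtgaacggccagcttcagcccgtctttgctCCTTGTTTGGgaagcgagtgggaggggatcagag
Lmod1: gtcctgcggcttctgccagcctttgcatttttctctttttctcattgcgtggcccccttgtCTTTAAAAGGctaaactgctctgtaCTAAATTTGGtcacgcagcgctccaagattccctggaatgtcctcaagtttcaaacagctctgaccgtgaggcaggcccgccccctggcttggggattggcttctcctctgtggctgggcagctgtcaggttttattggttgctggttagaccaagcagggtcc
The Acta2 window is chr19:34255374-34255623 on the minus strand, with sites starting 84 and 34 bases before the gene start. The Lmod1 window is chr1:135324563-135324812 on the plus strand, with sites starting 189 and 164 bases before the start.

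Levels per kilobase of exon (CPM divided by the union of a gene's exons in GENCODE M21) set the order of the members in the 0-week controls. Acta2 (119 ± 11.3 CPM per kb, SD, n = 4) and Tagln (110.0 ± 12.3) came highest and overlapped each other. Des (57.1 ± 5.57) came next, apart from both neighbours. Cnn1 (29.8 ± 1.53), Mylk (29.7 ± 1.69) and Myh11 (28.5 ± 0.918) did not differ beyond their spread. Actg2 (22.5 ± 2.18) and Smtn (19.5 ± 1.5) overlapped, followed by Lmod1 (6.57 ± 0.454) and, far below, Myocd (0.639 ± 0.149). After 2 and 5 weeks the order was the same at both ends, with Acta2 first and Myocd last, and Cnn1, Myh11, Mylk and Actg2 changed places in the middle.

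**Figure D1:**
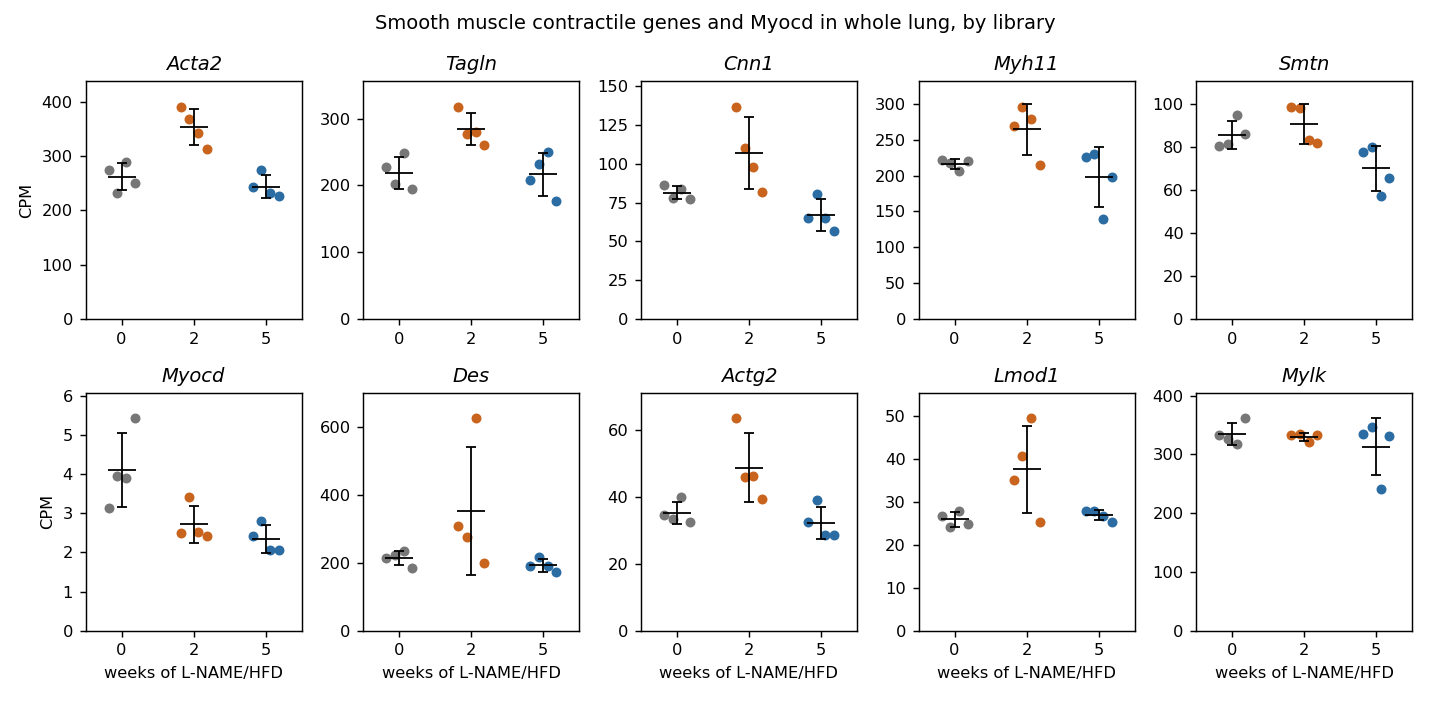
CPM of the 10 members (1 panel each, axes from 0) against weeks of L-NAME/HFD, with a point for each library and the mean ± SD of 4 libraries as bars. Acta2 and Tagln lie above all controls in each 2-week library, Myocd lies below all controls in each 5-week library, and Des has a single high point of 626 CPM at 2 weeks.

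After 2 weeks most contractile genes stood higher than at 0 weeks while Myocd stood lower. The median log2 difference of the 10 members was 0.37, against 0.019 over all 15562 genes tested. A positive difference was found for 8 of 10 members and a negative one for 2, where 55.1% of all genes had a positive and 44.9% a negative one. Acta2 and Tagln had each 2-week library above each control, as did 3.37% of all genes, and 0 members had each below, as did 1.95%. The number of members with each 2-week library above each control was largest with 2-week replicate 4 left out, where the share of all genes was not computed. Limma called 0 of 10 members and 0 of 15562 genes at an adjusted p below 0.05 (0.0% called), with 1438 genes at an unadjusted p below 0.05. Without 5-week replicate 3 limma called 24 genes, 0 of them members. Since these values chose the members, their counts support nothing further.

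After 5 weeks the contractile genes stood near or below the controls. The median log2 difference of the members against 0 weeks was -0.14, against 0.018 over all genes, with 9 of 10 members below 0 and 1 above, where 45.0% of all genes were below and 55.0% above. Smtn and Myocd had each 5-week library below each control, as did 1.36% of all genes, and 0 members had each above, as did 3.65%. The number of members with each below was largest with 5-week replicate 2 left out, where the share of all genes was not computed. Between 5 and 2 weeks the median was -0.43, against 0.0007 over all genes, with 10 of 10 members below 0 and 0 above, where 49.8% of all genes were below and 50.2% above. Acta2, Tagln, Cnn1, Smtn and Actg2 had each 5-week library below each 2-week library, as did 2.56% of all genes, and 0 members had each above, as did 2.38%. The number with each below was largest with 2-week replicate 4 left out, where the share of all genes was likewise not computed. Limma called 0 members and 0 genes in both comparisons (0.0% called), with 1343 genes at an unadjusted p below 0.05 for 5 against 0 weeks and 1696 genes for 5 against 2 weeks. Without 2-week replicate 4 limma called 386 genes for 5 against 2 weeks, 5 of them members. Markers of other cell types also had lower values at 5 than at 2 weeks. All 10 ciliated and club cell markers (median -0.32, lowest adjusted p = 0.288), all 14 cardiomyocyte markers (median -0.39, lowest adjusted p = 0.304) and all 10 skeletal muscle markers (median -2.21, lowest adjusted p = 0.525) had negative differences. Their part in the difference of the members was not tested. The comparisons with 0 weeks share the control mice, and both comparisons that involve 2 weeks share the 2-week mice.

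**Figure D2:**
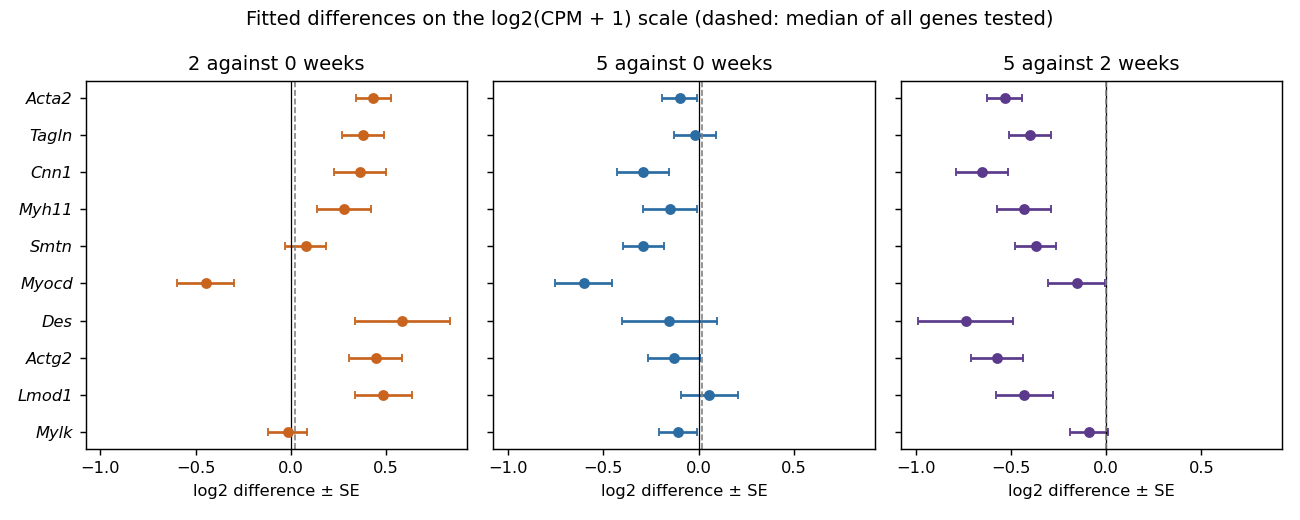
Fitted log2 differences (x axis, log2(CPM + 1) scale) with SE bars for each member, in 3 panels for 2 against 0, 5 against 0 and 5 against 2 weeks. The dashed line is the median of all genes tested, and Myocd is the member farthest below 0 in the first and second panel.

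The actins and actin-binding proteins of the thin filament, 5 members, all had positive differences at 2 weeks. Acta2 (ENSMUSG00000035783, chromosome 19, 34218490 to 34232990, these and later gene positions being those of the deposited table) encodes smooth muscle alpha-actin. The table names no build, the submitters' processing notes name mm10, and the table's positions do not match GRCm38, so they cannot be set against the promoter windows above, which are in GRCm38.p6. In replicates 1 to 4 it stood at 274, 233, 289 and 251 CPM in the 0-week controls, at 391, 368, 343 and 313 CPM at 2 weeks, and at 243, 275, 231 and 226 CPM at 5 weeks. The 2-week libraries are clear of both other groups, and the 5-week libraries overlap the controls. The mean was 354 ± 33.7 CPM at 2 weeks, 1.35 times the 262 ± 24.8 CPM of the controls, and the 5-week mean of 244 ± 22.0 CPM was 0.933 times it (SD, n = 4). The 2-week libraries had a log2 difference of 0.43 ± 0.092 from the controls. The 5-week libraries had -0.10 ± 0.092 from the controls and -0.53 ± 0.092 from the 2-week libraries.

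Actg2 (ENSMUSG00000059430, chromosome 6, 83489887 to 83513247) encodes smooth muscle gamma-actin, the main actin of visceral smooth muscle. It stood at 34.7, 33.3, 40.0 and 32.5 CPM in the controls, at 63.4, 45.9, 46.1 and 39.3 CPM at 2 weeks and at 32.4, 38.9, 28.7 and 28.5 CPM at 5 weeks. Control replicate 3 lies above 2-week replicate 4, so those groups overlap, whereas all 5-week libraries lie below all 2-week libraries. The log2 difference from the controls was 0.44 ± 0.14 at 2 weeks and -0.13 ± 0.14 at 5 weeks, and that of 5 against 2 weeks was -0.57 ± 0.14. Muscle actin genes have near-identical coding sequences, and no source used here says how shared reads were counted, so the split among Acta2, Actg2, Acta1 and Actc1 is uncertain.

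Tagln (ENSMUSG00000032085, chromosome 9, 45840917 to 45847356) encodes transgelin (SM22-alpha), which binds actin filaments. It stood at 228, 203, 248 and 195 CPM in the controls, at 318, 277, 280.2 and 261 CPM at 2 weeks and at 208, 232, 249.8 and 177 CPM at 5 weeks. All 2-week libraries lie above all others, and the 5-week range spans that of the controls. Its ratio of means was 1.30 at 2 weeks and 0.991 at 5 weeks against the controls.

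Cnn1 (ENSMUSG00000001349, chromosome 9, 22010512 to 22020926) encodes calponin 1, which binds actin and restrains myosin's ATPase. It stood at 86.1, 78.2, 83.7 and 77.5 CPM in the controls, at 137, 110.0, 98.1 and 81.9 CPM at 2 weeks and at 65.1, 80.8, 65.1 and 56.5 CPM at 5 weeks. Of the 2-week libraries 3 lie above all controls, while replicate 4 is within the control range, and all 5-week libraries lie below all 2-week libraries. The log2 difference for 2 against 0 weeks was 0.36 ± 0.14, and 0.24 without 2-week replicate 1. For 5 against 0 weeks it was -0.29 ± 0.14 and for 5 against 2 weeks -0.65 ± 0.14.

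Lmod1 (ENSMUSG00000048096, chromosome 1, 135252545 to 135295803) encodes leiomodin 1, which nucleates actin filaments in smooth muscle. It stood at 26.8, 24.1, 28.0 and 24.9 CPM in the controls, at 35.1, 40.7, 49.6 and 25.4 CPM at 2 weeks and at 27.9, 28.0, 26.7 and 25.4 CPM at 5 weeks. The first 3 of the 2-week libraries exceed all controls and replicate 4 is within them. The 5-week and control ranges nearly coincide, with a log2 difference of 0.056 ± 0.15. For 2 against 0 weeks it was 0.49 ± 0.15, and 0.31 without the 3 libraries that stand apart.

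In the myosin arm the log2 difference for 2 against 0 weeks was 0.28 ± 0.14 for the heavy chain gene and -0.018 ± 0.10 for the kinase gene. The 2 genes were not tested against each other. Myh11 (ENSMUSG00000018830, chromosome 16, 14012399 to 14109236) encodes the smooth muscle myosin heavy chain. It stood at 222, 217, 206 and 219.7 CPM in the controls, at 269.5, 296, 278 and 214 CPM at 2 weeks and at 225, 231, 139 and 198 CPM at 5 weeks. At 2 weeks 3 libraries exceed all controls and replicate 4 does not. The 5-week mean of 198 ± 41.9 CPM against 216 ± 6.97 CPM in the controls rests on replicate 3, since the log2 difference of -0.15 ± 0.14 was 0.0095 without that library.

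Mylk (ENSMUSG00000022836, chromosome 16, 34565580 to 34822790) encodes myosin light chain kinase, including a longer form that endothelial cells also make, and the gene-level values do not separate the forms. It averaged 330.3 ± 6.80 CPM at 2 weeks and 313 ± 49.1 CPM at 5 weeks, against 335 ± 19.0 CPM in the controls (SD, n = 4). Its log2 difference for 2 against 0 weeks was -0.018 ± 0.10, the only contractile member without a positive value. In 5-week replicate 3 Mylk stood at 240.4 CPM, against 332 to 347 CPM in the other 5-week libraries.

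Smtn (ENSMUSG00000020439, chromosome 11, 3467523 to 3490612) encodes smoothelin, a cytoskeletal protein of contractile smooth muscle. It stood at 80.1, 81.1, 94.5 and 85.7 CPM in the controls, at 98.6, 98.0, 83.1 and 81.5 CPM at 2 weeks and at 77.6, 79.6, 57.3 and 65.7 CPM at 5 weeks. The 2-week libraries overlap the controls, and all 5-week libraries lie below both other groups. The log2 differences were 0.078 ± 0.11 for 2 against 0 weeks and -0.29 ± 0.11 for 5 against 0 weeks.

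Des (ENSMUSG00000026208, chromosome 1, 75336973 to 75345223) encodes desmin, the intermediate filament protein of smooth, cardiac and skeletal muscle. It stood at 215, 222, 235 and 186 CPM in the controls, at 308, 275, 626 and 199 CPM at 2 weeks and at 189.5, 218, 189.8 and 173 CPM at 5 weeks. The 626 CPM belong to 2-week replicate 3, the library with 9641 CPM of skeletal muscle markers. Without that library the log2 difference for 2 against 0 weeks was 0.26, against 0.58 ± 0.25 with it. The other 2-week libraries with high Des, replicates 1 and 2, held 36.3 and 50.6 CPM of skeletal muscle markers. Their cardiomyocyte markers summed to 1465 and 2390.0 CPM, against 609 CPM in 2-week replicate 4 and 776 to 1468 CPM in the controls. The part of cardiac and skeletal muscle in the Des values was not tested.

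Myocd (ENSMUSG00000020542, chromosome 11, 65067387 to 65160815), the coactivator, had lower means in treated lungs. It stood at 3.15, 3.96, 3.89 and 5.43 CPM in the controls, at 2.49, 3.42, 2.53 and 2.42 CPM at 2 weeks and at 2.42, 2.80, 2.06 and 2.05 CPM at 5 weeks. Of the 2-week libraries only replicate 2 reached the control range, and none of the 5-week libraries did. These values correspond to about 63 to 172 reads per library, so the counting error is larger than for the other members. The mean was 2.72 ± 0.473 CPM at 2 weeks and 2.33 ± 0.356 CPM at 5 weeks, against 4.11 ± 0.955 CPM in the controls (SD, n = 4), which makes 0.662 and 0.568 times the control mean.

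Against the controls, Myocd had a log2 difference of -0.45 ± 0.15 at 2 weeks and -0.60 ± 0.15 at 5 weeks, and 5 against 2 weeks gave -0.15 ± 0.15. Without control replicate 4, the highest library, the 2-week value was -0.33 and the 5-week value -0.49. The pseudocount weighs on so low a gene. With 0.1 in place of 1 the values were -0.57 at 2 weeks and -0.77 at 5 weeks, and with 5 they were -0.24 and -0.31. The level of Acta2 per unit of Myocd was 107 to 157 at 2 weeks and 98.3 to 112 at 5 weeks, against 46.3 to 87.0 in the controls. For Myh11 the same ratio was 86.5 to 110.0 at 2 weeks and 67.6 to 96.7 at 5 weeks, against 40.5 to 70.6 in the controls. Both ratios were clear of the controls at 2 weeks, and at 5 weeks that of Acta2 was and that of Myh11 was not. At 5 weeks the ratio for Tagln was 82.7 to 121, against 35.9 to 72.6 in the controls. That for Cnn1 was 26.9 to 31.6, against 14.3 to 27.4 in the controls. All these ratios share the Myocd values, which lay below all controls at 5 weeks, where Acta2 overlapped the controls. The share of all genes with such ratios was not computed.

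**Figure D3:**
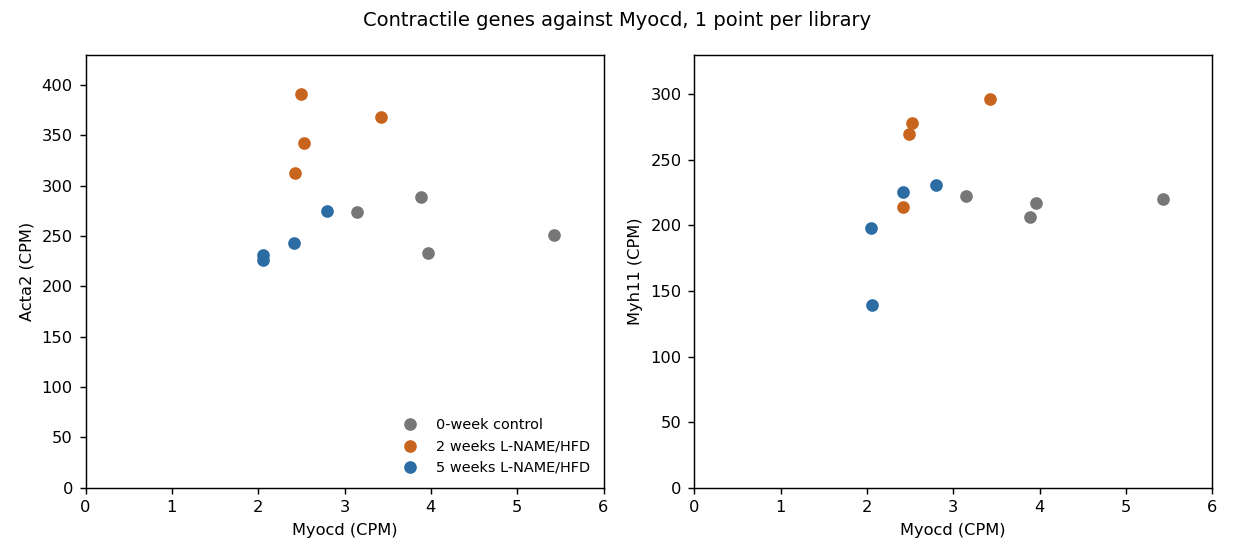
Acta2 (left) and Myh11 (right) in CPM against Myocd in CPM, with 1 point for each of 12 libraries coloured by group. The 4 controls lie to the right at 3.15 to 5.43 CPM of Myocd, and the 2-week libraries lie at high Acta2 with Myocd at 2.42 to 3.42 CPM.

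Whether Myocd varied with the contractile genes between mice of the same group was not used in choosing the members and was tested. Each library was centred on its group mean, and the values of a gene were rearranged within groups in all 13824 ways (two-sided permutation test, 9 relations). Pearson's r with Myocd lay between -0.20 (Tagln) and 0.52 (Smtn), with a median of 0.16 over the 9 genes. For Smtn the permutation p was 0.0816 (adjusted 0.348) with Spearman's rho of 0.63 (p = 0.0559, adjusted 0.503). For Myh11 r was 0.43 (permutation p = 0.0851, adjusted 0.348) with rho of 0.39 (p = 0.228, adjusted 0.684). None of the 9 relations passed in r (lowest adjusted p = 0.348) or in rho (lowest adjusted p = 0.503). Without control replicates 2 and 4, the libraries farthest from the median of Myocd, r was 0.75 for Smtn, 0.63 for Acta2, 0.56 for Myh11, 0.40 for Cnn1, 0.38 for Actg2, 0.35 for Mylk, 0.34 for Lmod1, 0.18 for Tagln and 0.054 for Des. That median was taken over all 12 libraries before centring. Control replicate 2 (3.96 CPM) lay near the control mean (4.11 CPM), and control replicate 1, the lowest (3.15 CPM), was kept. The choice thus does not pick out the libraries extreme within their group, and these r were not tested.

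Among the contractile genes, covariation within groups differed from pair to pair. The 36 pairs without Myocd had a median r of 0.40, with 32 pairs above 0. Cnn1 with Actg2 (0.91), Acta2 with Actg2 (0.87) and Acta2 with Cnn1 (0.86) were close, and these stayed at 0.92 to 0.94 without the 3 libraries that stand apart. Des with Lmod1 had an r of 0.87, and 0.77 without 2-week replicate 3. Myh11 with Mylk had 0.79, but 0.16 without 5-week replicate 3, where both genes are low. Tagln with Mylk had -0.54, and -0.25 without that library. Smtn had 0.755 with Myh11, 0.735 with Acta2, 0.734 with Actg2, 0.63 with Mylk and 0.608 with Cnn1. With Lmod1, Tagln and Des it had 0.232, 0.165 and 0.027. Without 5-week replicate 3 Smtn had 0.526 with Myh11 and 0.114 with Mylk. These are descriptions over 12 libraries that share total depth, and no test was made.

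**Figure D4:**
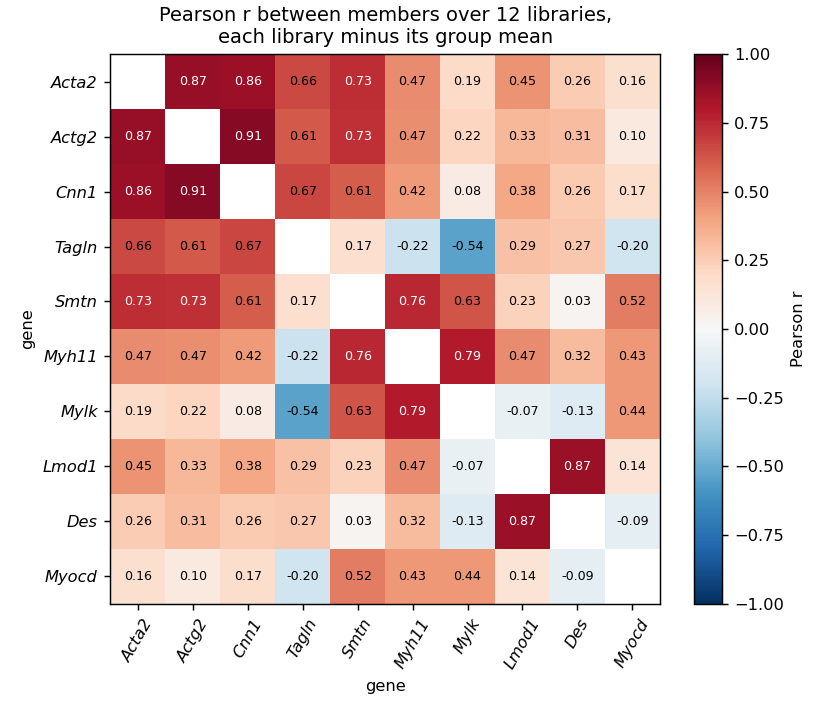
Pearson's r between each pair of the 10 members over 12 libraries after subtracting group means, from -1 (blue) to 1 (red). The pairs among Acta2, Actg2, Cnn1 and Tagln have 0.61 or more, and Myocd (last row) lies between -0.20 and 0.52.

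The genes most like Acta2 by this within-group r over 12 libraries, outside the members, were Ttc26 (0.94), Kcnmb1 (0.92), Drc1 (0.91), Ankrd45 (0.91) and Qsox1 (0.91). Ttc26 encodes a protein of transport along cilia and Drc1 a part of the dynein regulatory complex of motile cilia. Kcnmb1 encodes a subunit of the potassium channel that limits smooth muscle contraction. It averaged 9.34 ± 0.892 CPM at 2 weeks and 7.26 ± 1.31 CPM at 5 weeks, against 7.35 ± 0.966 CPM in the controls. Those most like Myh11 were Hydin (0.96), Rnf150 (0.94), Tmem184a (0.94), Slc4a8 (0.94) and Map1b (0.94), of which Hydin encodes a protein of the motile cilium. Myh11 stood at 139 CPM in 5-week replicate 3, against 198 to 231 CPM in the other 5-week libraries. The r with Myh11 were not recomputed without that library. Its summed ciliated and club cell markers (27863 CPM) were the highest of the 5-week libraries, the others having 20670 to 25587 CPM. Each set of 5 holds the highest r out of 13697 candidates, and no test of these r was made. The part of ciliated airway tissue in these likenesses was not tested. Those most like Myocd were Slc25a36 (0.94), Itgav (0.92), Hsp90ab1 (0.92), Plekhf1 (0.91) and Phip (0.91).

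Other genes of smooth muscle were counted from lists, with limma and p-values adjusted over all 15562 genes, and 0 genes of any list passed in any of the 3 comparisons. Of 20 other contractile and cytoskeletal genes, 13 had a positive and 7 a negative difference for 2 against 0 weeks (median 0.079), where 55.1% of all genes were positive. For 5 against 0 weeks 5 were positive and 15 negative (median -0.12), where 45.0% of all genes were negative. For 5 against 2 weeks 4 were positive and 16 negative (median -0.19), where 49.8% of all genes were negative. The 20 genes summed to 6546 CPM in 2-week replicate 3, the library with 9641 CPM of skeletal muscle markers. The other 2-week libraries had sums of 5451 to 5844 CPM. The part of skeletal muscle in these differences was not tested. Myl9, the regulatory light chain of smooth muscle myosin, averaged 148 ± 19.8 CPM at 2 weeks against 117 ± 15.1 CPM in the controls (log2 difference 0.34 ± 0.11, adjusted p = 0.402). For 5 against 2 weeks Myl9 had -0.44 ± 0.11 (adjusted p = 0.288). Pdlim7, which links kinases to actin fibres, had -0.34 ± 0.11 (adjusted p = 0.517) at 5 weeks. Mustn1 had -0.34 ± 0.091 (adjusted p = 0.288) for 5 against 2 weeks.

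Srf, Mrtfa and Mrtfb, the genes of SRF and the MRTF coactivators, had means close to those of the controls. Of 14 SRF cofactors and regulators 5 were positive and 9 negative at 2 weeks (median -0.026), where 44.9% of all genes were negative. At 5 weeks 2 were positive and 12 negative (median -0.087), where 45.0% of all genes were negative. For 5 against 2 weeks 3 were positive and 11 negative (median -0.070), where 49.8% of all genes were negative. Srf averaged 65.4 ± 6.32 CPM at 2 weeks and 64.9 ± 8.52 CPM at 5 weeks, against 70.2 ± 8.12 CPM in the controls. Mrtfa averaged 42.4 ± 3.82 CPM at 2 weeks and 45.9 ± 4.49 CPM at 5 weeks, against 44.1 ± 3.90 CPM, and Mrtfb 65.1 ± 1.91 CPM at 2 weeks and 61.1 ± 11.4 CPM at 5 weeks, against 64.7 ± 2.97 CPM. Klf4, a factor that represses contractile genes in smooth muscle and is also made by other lung cells, had -0.87 ± 0.29 (adjusted p = 0.41) at 2 weeks and -0.54 ± 0.29 (adjusted p = 0.632) at 5 weeks. The transcription factor gene Mef2a had -0.19 ± 0.094 (adjusted p = 0.564) at 2 weeks and Mef2d -0.19 ± 0.094 (adjusted p = 0.587) at 5 weeks. For 5 against 2 weeks Gata6 had -0.16 ± 0.082 (adjusted p = 0.503) and Mef2d -0.15 ± 0.094 (adjusted p = 0.594).

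Of 16 genes signalling to the contractile apparatus 5 were positive and 11 negative at 2 weeks (median -0.069), and 6 were positive and 10 negative at 5 weeks (median -0.025). Agtr1a, an angiotensin II receptor, had -0.26 ± 0.12 (adjusted p = 0.524) and Kcnma1, the pore of the channel that Kcnmb1 serves, 0.43 ± 0.20 (adjusted p = 0.545) at 2 weeks. At 5 weeks the calcium channel gene Cacna1c had -0.32 ± 0.16 (adjusted p = 0.601) and the muscarinic receptor gene Chrm2 -0.28 ± 0.14 (adjusted p = 0.619). For 5 against 2 weeks 9 of the 16 were positive and 7 negative (median 0.0093), with Kcnma1 at -0.57 ± 0.20 (adjusted p = 0.336) and Chrm2 at -0.36 ± 0.14 (adjusted p = 0.379). Of 8 genes of synthetic smooth muscle, the less contractile state, 4 were positive and 4 negative at 2 weeks, and 5 positive and 3 negative at 5 weeks. Ccn1, a matrix protein that many cell types make, stood at 382 to 691 CPM at 2 weeks and at 372 to 579 CPM at 5 weeks, all above the 193 to 345 CPM of the controls. Its log2 difference was 1.02 ± 0.22 (adjusted p = 0.197) at 2 weeks and 0.91 ± 0.22 (adjusted p = 0.379) at 5 weeks. Vim, an intermediate filament gene of many cell types, had -0.19 ± 0.088 (adjusted p = 0.545) at 2 weeks. The secreted protein gene Spp1 had 0.70 ± 0.29 (adjusted p = 0.554) at 5 weeks. For 5 against 2 weeks 5 were positive and 3 negative, with S100a4 at 0.44 ± 0.27 (adjusted p = 0.592) and Vim at 0.13 ± 0.088 (adjusted p = 0.633).

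Markers of other cell types differed between libraries beside the contractile genes. Ciliated and club cell markers (10 genes, defining members Foxj1 and Scgb1a1) were positive for 9 of 10 at 2 weeks (median 0.21), with Ccdc39 at 0.44 ± 0.12 (adjusted p = 0.307). At 5 weeks 2 were positive and 8 negative (median -0.089), and for 5 against 2 weeks 0 were positive and 10 negative (median -0.32). They summed to 33618, 35413, 31216 and 23064 CPM in 2-week replicates 1 to 4, against 34252, 23516, 35355 and 22625 CPM in the controls. The 2-week library with the lowest sum, replicate 4, is also that with the lowest Acta2. The lowest 2-week values of Tagln, Cnn1, Myh11, Smtn, Myocd, Des, Actg2 and Lmod1 were in that library too, and that of Mylk was not. In replicate 4 Acta2 (313 CPM) and Tagln (261 CPM) lay above all controls, and the other members did not. The relation of the members to the marker sums was not tested.

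Cardiac muscle sheathes the pulmonary veins of mice. Cardiomyocyte markers (14 genes, defining member Myh6) were positive for 12 of 14 at 2 weeks (median 0.16) and negative for 13 of 14 at 5 weeks (median -0.30) and for 14 of 14 between 5 and 2 weeks (median -0.39), with Actc1 at 0.25 ± 0.20 (adjusted p = 0.686) at 2 weeks and -0.37 ± 0.20 (adjusted p = 0.629) at 5 weeks. They summed to 609 to 2390.0 CPM at 2 weeks and 654 to 1081 CPM at 5 weeks, against 776 to 1468 CPM in the controls. The lowest sum at 2 weeks was that of replicate 4 as well. Skeletal muscle markers were positive for 10 of 10 at 2 weeks (median 1.39), where the sum rests on replicate 3, and negative for 10 of 10 at 5 weeks (median -0.94). Their defining member Myh4 was listed at 0 in at least 1 library of every group. Of the cartilage markers, Chad passed the filter on low values and had 0.34 ± 0.19 (adjusted p = 0.594) at 2 weeks. The part of airway, cardiac, skeletal and cartilage tissue in the differences of the contractile genes was not tested.

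**Figure D5:**
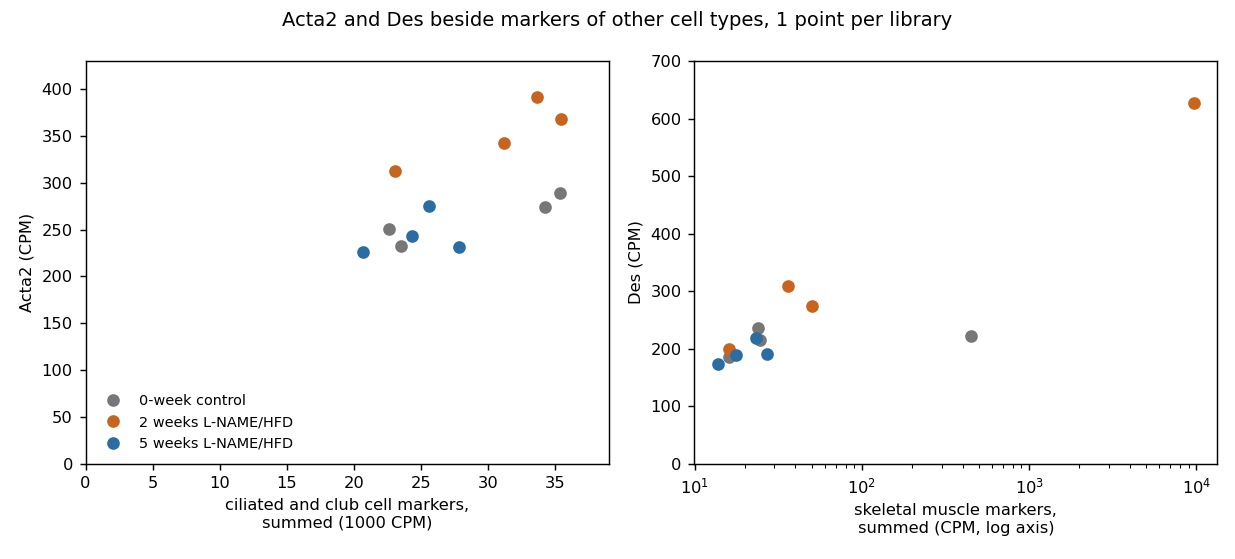
Left, Acta2 (CPM) against the summed ciliated and club cell markers (1000 CPM), and right, Des (CPM) against the summed skeletal muscle markers (CPM, log axis), with 1 point for each of 12 libraries. The 2-week libraries lie at 313 to 391 CPM of Acta2, 3 of them at marker sums of 31216 CPM or more, and the library with 626 CPM of Des lies alone at 9641 CPM of skeletal muscle markers.

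Pericytes and fibroblasts, the other mesenchymal cells of vessels and septa, were followed by their markers, and at 2 weeks 44.9% of all genes had a negative difference. Of 12 pericyte markers 5 were positive and 7 negative at 2 weeks (median -0.068), and the potassium channel gene Kcnj8 had -0.45 ± 0.15 (adjusted p = 0.41). At 5 weeks 4 were positive and 8 negative (median -0.12), with Rgs5 at -0.84 ± 0.41 (adjusted p = 0.59). Of 14 fibroblast markers 2 were positive and 12 negative (median -0.13), with the growth factor receptor gene Pdgfra at -0.41 ± 0.11 (adjusted p = 0.269). At 5 weeks 3 were positive and 11 negative (median -0.16), with Wnt2 at 0.38 ± 0.12 (adjusted p = 0.513) and Tcf21 at 0.36 ± 0.12 (adjusted p = 0.517). Of 5 markers of airway smooth muscle and alveolar myofibroblasts 2 were positive and 3 negative at 2 weeks, and 1 was positive and 4 negative at 5 weeks. Lgr6 had 0.27 ± 0.22 (adjusted p = 0.689) at 2 weeks and -0.62 ± 0.22 (adjusted p = 0.337) for 5 against 2 weeks.

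Of 8 endothelial markers 6 were positive and 2 negative at 2 weeks (median 0.055), and 3 were positive and 5 negative at 5 weeks (median -0.012). Of 5 mesothelial markers 3 were positive and 2 negative at 2 weeks, and 1 was positive and 4 negative at 5 weeks. Leukocyte markers (10 genes, defining member Ptprc) were positive for 2 of 10 at 2 weeks (median -0.21) and for 10 of 10 at 5 weeks (median 0.71). They summed to 353 to 759.5 CPM at 2 weeks and 657 to 1144 CPM at 5 weeks, against 411 to 695 CPM in the controls. Red cell markers were positive for 5 of 5 at 5 weeks (median 1.46) and for 2 of 5 at 2 weeks (median -0.035). Adipocyte markers were negative for 6 of 6 at 2 weeks (median -1.17) and for 5 of 6 at 5 weeks (median -0.89). Control replicate 2 weighs on both, since its adipocyte sum was 1497 CPM, against 34.6 to 106 CPM in the other controls. The treated libraries had 23.0 to 119 CPM at 2 weeks and 34.9 to 142 CPM at 5 weeks. CPM are shares of a library, and the part of the larger leukocyte share in the lower contractile values at 5 weeks was not tested.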

How the data were processed

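The authors deposited CPM values for 12 whole-lung libraries, 1 mouse each per the labels, with 0.0001 added throughout, and each library sums to between 1000002.3 and 1000002.4. TopHat2, Partek and mm10 are named with no role, per the submitters' processing notes. Other steps, strand handling included, were not given in the sources used here. Read steps were whole (within 0.1) for 87.2% to 88.0% of values of up to 20 steps, too few to recover counts, so no count model was used.

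Genes averaging at least 1 CPM (15562, all 10 members included) were put on the log2(CPM + 1) scale, which understates changes of low genes. Limma 3.58.1 (R 4.3.3) fitted the group means over all libraries with a variance trend. Tests were two-sided, with Benjamini-Hochberg adjustment over all genes and a threshold of 0.05. The fit was tested on simulated data with the same spread setting for every gene and no libraries that stand apart. The simulation does not cover libraries such as the 3 set apart here. Permutations and tables were made in Python 3.11.15 (scipy 1.17.1, numpy 2.4.6, pandas 2.3.3), and plots in matplotlib 3.10.9. The members and lists were chosen with earlier results of these data known.

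The rule for naming gave the 10 members, the 2 genes of each list with the smallest p in each comparison, and the 5 protein-coding genes most correlated with Acta2, Myh11 and Myocd out of 13697 candidates. For lists of other cell types not all genes of the rule are printed. One gene that the rule gives is not reported here. Srf, Mrtfa and Mrtfb are named for their role, after their values were seen. Alternatives were other pseudocounts, filters, scalings, weights, variance moderation, fits of 2 groups and libraries left out. GENCODE M21 gave exon lengths and RefSeq the promoters.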

Additional observations from a re-analysis of the deposited data

Results flagged for a closer look

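Myocd in 2-week replicate 2 stood at 3.42 CPM, far from the other 2-week libraries at 2.42 to 2.53 CPM. Mylk in 5-week replicate 3 stood at 240.4 CPM, far below the other 5-week libraries at 332 to 347 CPM, and this library also had the highest red cell sum (16132 CPM) and the highest leukocyte sum (1144 CPM). These are 2 of the 30 combinations of member and group examined, and chance flags about 1 in 20 of them. For Cnn1 all 2-week libraries lay above the control mean (mean log2 difference 0.36) and all 5-week libraries below it (-0.52 to -0.01). The nearest were 2-week replicate 4 at 81.9 CPM and 5-week replicate 2 at 80.8 CPM, beside a control mean of 81.4 CPM. The share of all genes with groups on opposite sides was not computed. That opposite direction was not tested.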

How the results depend on the processing

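No paired analysis was possible because the labels give each mouse a number of its own and none is shared between groups. The median log2 difference of the members kept its sign under all alternatives run. Leaving out 1 library at a time it ranged from 0.29 to 0.45 at 2 weeks and from -0.22 (without 5-week replicate 2) to -0.086 (without 5-week replicate 3) at 5 weeks against the controls, and from -0.56 to -0.39 between 5 and 2 weeks. Over all genes, limma passed 0 genes in each comparison. With library weights it passed 18 at 2 weeks and 0 at 5 weeks against the controls and 881 between 5 and 2 weeks, 8 lower members among the 881. Leaving out 1 library at a time, in the same order, it passed 0 to 24 (24 without 5-week replicate 3, 1 without control replicate 1), 0 to 1 (1 without control replicate 1) and 0 to 386 (386, with 5 lower members, without 2-week replicate 4). The cause was not tested. Of 657 recomputed differences of single members 13 changed sign, all of them for Tagln, Myh11 or Mylk, and 2 moved by more than the spread between replicates, both for Myocd with a pseudocount of 5. The median r of Myocd with the other 9 members was between -0.014 and 0.34 with 1 library left out at a time, chosen after seeing the data, and -0.003 when group means were not removed. Depth limits Myocd most, at 63 to 172 reads.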
